A study of Mus musculus with 4 samples.

Results

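The Reg genes encode small secreted proteins with a C-type lectin fold, several of which bind and kill bacteria at the gut surface. Of the 21648 genes and unnamed transcripts tested, 7 belong to this family: Reg1, Reg2, Reg3a, Reg3b, Reg3d, Reg3g and Reg4. They were taken by name, through probes whose RefSeq accession carries the symbol, and each had 1 probe printed as 1 spot per array. The RNA came from the ileum, the last stretch of the small intestine, of male C57BL/6J mice aged 10 weeks. There were 2 control samples, and 2 samples from mice given the glucose-lowering biguanide metformin by mouth at 1000 mg/kg. The duration of dosing and any vehicle for the controls are not given in the sources used here. The labels do not say whether samples of a group came from separate mice, so every p-value reflects how far these samples vary, and that variation may be technical. A piece of ileum is a mixture of cells, so fewer cells of a type and less RNA per cell cannot be told apart.

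In the small intestine Reg3g and Reg3b are made mainly by enterocytes and Paneth cells. Reg3g binds peptidoglycan, kills Gram-positive bacteria and helps to keep bacteria away from the epithelial surface. Both genes are known to be induced by bacterial signals through the adaptor MyD88, and by the cytokine interleukin-22, which acts through the transcription factor STAT3. Reg1 and Reg2 are known from pancreatic acinar cells and regenerating islets. Reg3d is related to the islet neogenesis protein INGAP, and Reg4 is known from secretory cells of the gut.

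A single slide, read in 1 scan, carried the 4 arrays. Controls lay at positions 1 and 2 and metformin samples at positions 3 and 4, so position and treatment cannot be told apart. The sample labelled metformin 1 stood apart in regional markers: 6 of 8 tested markers of the upper small intestine were highest in it, and 6 of 8 tested markers of the ileum were lowest in it. Fabp6, the ileal bile acid binding protein, had log2 signals relative to the array's 75th percentile of 4.16 in metformin 1 and 8.70 in metformin 2, against 8.94 and 8.29 in controls 1 and 2. Values for the Reg genes are therefore given with and without metformin 1. All levels below are on this scale, and they compare arrays for 1 probe, never probes with each other.

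No Reg gene passed the test of metformin against control samples. In limma's fit across all genes, 0 of the 7 passed a Benjamini-Hochberg adjusted p of 0.05 (adjusted p = 0.9996 for each), and 0 of the 7 had an unadjusted p under 0.05. Over all genes 0% were called by the same limma rule, and 347 had an unadjusted p under 0.05. With 2 samples against 2, an exact two-sided permutation test cannot go below p = 0.333.

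In 3 of the 7 genes, Reg2, Reg3a and Reg3d, both metformin samples lay above both controls, an order found in 12.5% of all genes tested. Reg2 was not well above background in control 1 and passed the filter on dim probes only through the metformin group, where it was higher, so it adds nothing to this count. In 0 of the 7 did both lie below both controls, an order found in 8.46% of all genes. A difference of at least 2-fold without overlap was found in 0 of the 7, against 0.633% of all genes in the higher direction and 2.31% in the lower. The mean with metformin was higher in 6 Reg genes and lower in 1, and over all genes it was higher in 12532 and lower in 9116 of 21648. The median log2 difference of the 7 was 0.57, against 0.06 over all genes. Both the count of means and this median include Reg2.

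**Figure D1:**
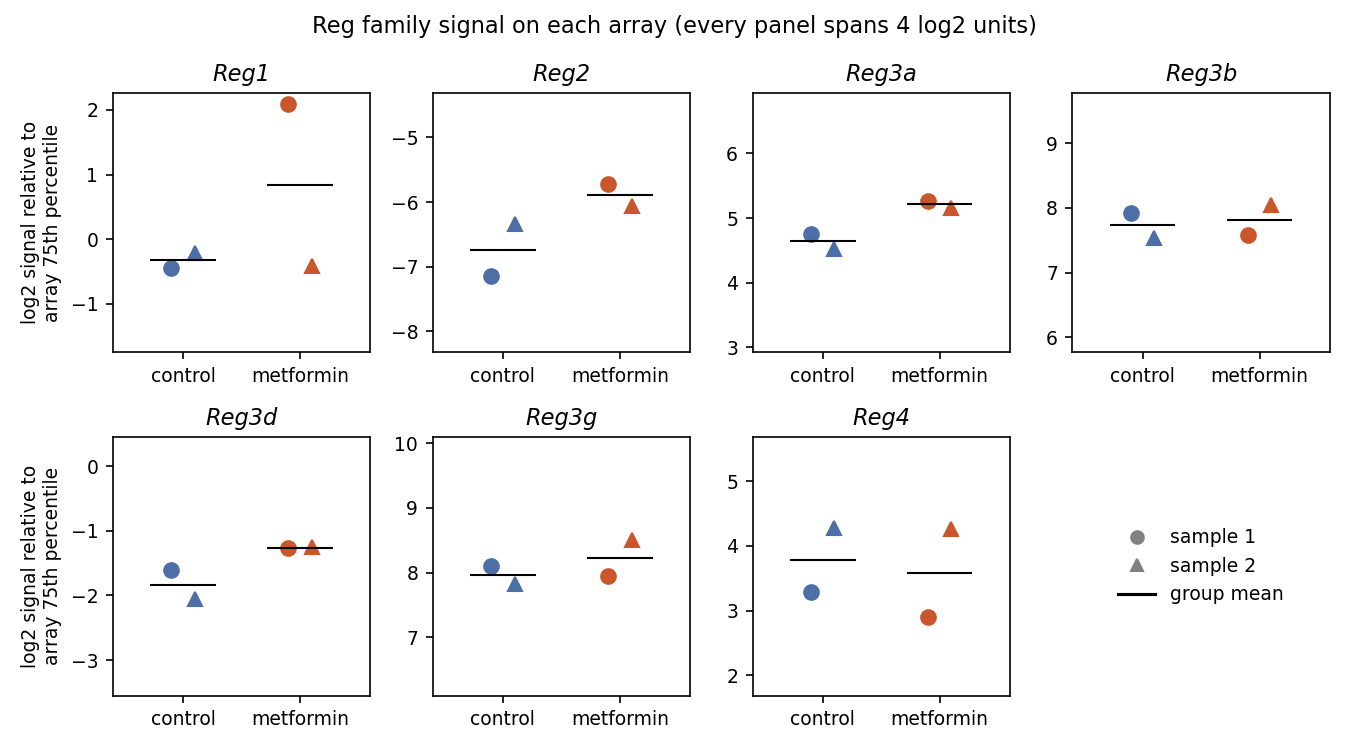
Signal of each Reg gene on each array, as log2 of the processed signal relative to that array's 75th percentile (vertical axis), in control and metformin samples (horizontal axis), with markers for samples numbered 1 and 2 and lines for group means. Reg2, Reg3a and Reg3d show no overlap between groups, and Reg1 has 1 high sample at 2.09.

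**Figure D2:**
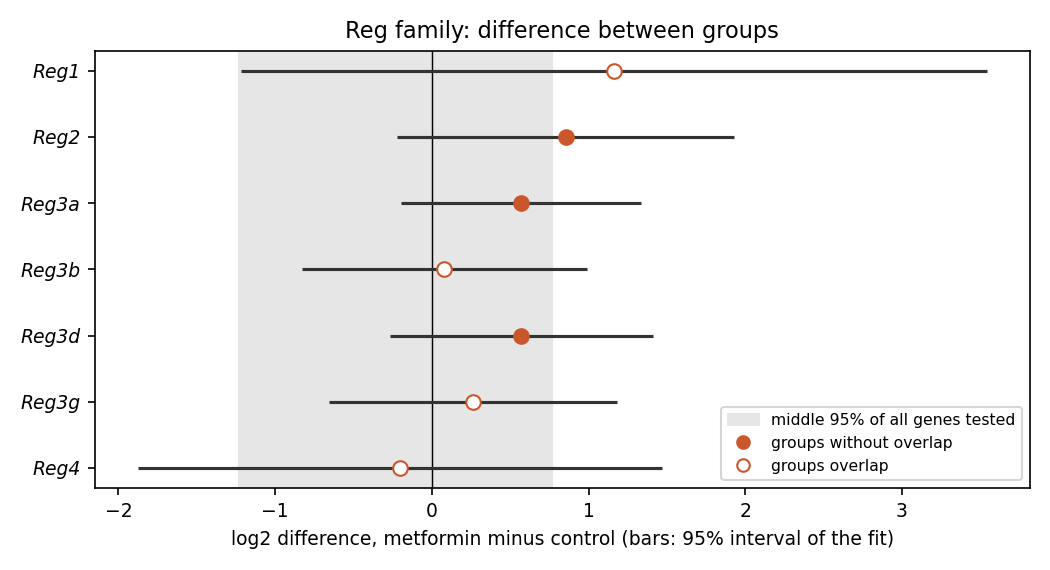
Log2 difference, metformin minus control, of each Reg gene (points, filled where groups did not overlap) with the 95% interval of the fit (bars); the grey band holds the middle 95% of all genes tested, from -1.23 to 0.76. Every interval crosses 0, and the widest is that of Reg1, from -1.22 to 3.54.

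The promoters of the 4 Reg3 genes are shown because by pattern over the arrays these genes formed 2 pairs, Reg3b with Reg3g and Reg3a with Reg3d, and because STAT3 binds a known short motif. All 7 Reg genes matched the RefSeq promoter table of build GRCm38.p6. Each line gives the 150 bases before the annotated start, 5′ to 3′ on the gene's strand. The stretches are chr6:78370735-78370884 (plus strand) for Reg3b, chr6:78468875-78469024 (minus strand) for Reg3g, chr6:78380559-78380708 (plus strand) for Reg3a and chr6:78378866-78379015 (minus strand) for Reg3d. Capitals mark the STAT-binding pattern TTCNNNGAA and the TATA box pattern TATAAA, which were searched on both strands and do not overlap each other here.
Reg3b: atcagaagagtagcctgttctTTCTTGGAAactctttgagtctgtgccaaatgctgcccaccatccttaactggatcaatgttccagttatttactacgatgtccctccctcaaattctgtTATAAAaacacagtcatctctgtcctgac
Reg3g: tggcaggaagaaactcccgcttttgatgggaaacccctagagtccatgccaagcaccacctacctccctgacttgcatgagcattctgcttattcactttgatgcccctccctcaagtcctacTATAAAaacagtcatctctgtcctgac
Reg3a: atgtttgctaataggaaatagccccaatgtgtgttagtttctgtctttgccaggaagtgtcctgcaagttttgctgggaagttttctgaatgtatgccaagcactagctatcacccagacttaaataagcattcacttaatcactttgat
Reg3d: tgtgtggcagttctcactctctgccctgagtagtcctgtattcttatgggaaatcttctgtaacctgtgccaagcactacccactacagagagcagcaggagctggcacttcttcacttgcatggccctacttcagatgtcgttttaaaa

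Over the 250 bases before the start, TTCNNNGAA occurred in Reg3b at positions -129 to -121, counted from the start, and in Reg3d at -238 to -230, outside the stretch shown. The same pattern was found in 7.02% of 32851 promoter windows of that length. TATAAA occurred in Reg3b at -29 to -24, in Reg3g at -27 to -22, and in Reg1 and Reg2 at -30 to -25. Reg3g held a further match on the other strand at -161 to -156, and 12.4% of all windows held the pattern at any place. No TATAAA was found in these windows of Reg3a, Reg3d and Reg4. A match describes the letters only.

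Aligned end to end over these 250 bases, the promoters of Reg3b and Reg3g were identical at 68.4% of alignment positions, the highest of 21 pairs of Reg genes. Reg1 and Reg2 came next at 56.9%. Reg3a and Reg3d were identical at 140 of 280 positions, or 50%. Each of these 2 was more like another member, Reg3a like Reg2 (52.7%) and Reg3d like Reg3g (51.4%). Pairs with Reg4 gave 44.9% to 48.2%. In the RefSeq gene order Reg3b, Reg3d, Reg3a, Reg2, Reg1 and Reg3g follow each other on chromosome 6, with a pseudogene between Reg1 and Reg3g, and Reg4 lies on chromosome 3.

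Reg3g and Reg3b, the antibacterial lectins, were highest in metformin 2, with overlap between groups. The Reg3g probe (NM_011260) read 8.11 and 7.83 in controls 1 and 2, against 7.95 for metformin 1 and 8.50 for metformin 2. Metformin 1 lay between the controls. Controls averaged 7.97 ± 0.20 and metformin samples 8.23 ± 0.39 (SD, n = 2), a log2 difference of 0.26 (SE 0.34). The 95% interval ran from 0.634-fold to 2.27-fold, so neither no change nor a doubling lay outside it. The processed signal was 214124 in metformin 1 and 387319 in metformin 2, where the brightest spots outside controls read 438258 and 442727. Reg3b was also bright there, at 165239 and 280199. No spot was flagged as saturated, but whether differences are compressed at this brightness was not tested.

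The Reg3b probe (NM_011036) read 7.92 and 7.54 in controls 1 and 2, and 7.58 and 8.04 in metformin 1 and 2. Here too metformin 1 lay between the controls. The means were 7.73 ± 0.27 and 7.81 ± 0.32 (SD, n = 2), a log2 difference of 0.08 (SE 0.34) with a 95% interval from 0.562-fold to 1.98-fold.

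The sign of the Reg3b difference depended on the scaling: it was -0.05 with quantile normalization, -0.19 with no scaling between arrays, and -0.18 when the deposited table was used unscaled. With no scaling the median of all genes was itself -0.20, and Reg3g differed by -0.0022. Without metformin 1 the differences were 0.31 for Reg3b and 0.54 for Reg3g, and without control 1 they were 0.27 and 0.40, in each case with no overlap. Without metformin 2 they were -0.15 and -0.01, with overlap. In such fits the lone sample of a group is assumed to vary like the others. An order without overlap is also reached more easily than with 2 samples against 2, and its share over all genes is not given here.

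After each gene's mean over the 4 arrays was subtracted, Reg3b and Reg3g differed by a root mean square of 0.10 log2 units. Of the 21 pairs only Reg3a with Reg3d was closer, at 0.09, and the pair farthest apart was Reg1 with Reg4, at 1.55. Of 14547 other named genes well above background on every array, 110 were nearer to Reg3b than Reg3g was, and 31 were nearer to Reg3g than Reg3b was. Within 0.25 lay 3061 genes for Reg3b and 2241 for Reg3g. The nearest to Reg3b were Asphd1 (0.02), Scin, an actin-severing protein (0.02), and Exph5 (0.03). The nearest to Reg3g were Olfr671, an olfactory receptor gene (0.03), Elovl1, a fatty acid elongase (0.04), and Marcksl1 (0.05). Probe sequences were not used here. The Reg3 genes are close relatives, and binding of a probe to transcripts of another member was not tested.

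Reg3a and Reg3d, neighbours in the gene order, were each about 1.5-fold higher with metformin, without overlap and without passing the test. Reg3a (NM_011259), a lectin of the same antibacterial subfamily, read 4.76 and 4.53 in the controls and 5.26 and 5.16 with metformin. Control 2 was lowest, and the metformin samples lay close together. The means were 4.64 ± 0.16 and 5.21 ± 0.07 (SD, n = 2), a log2 difference of 0.57 (SE 0.29), or 1.48-fold with a 95% interval from 0.871-fold to 2.52-fold. The unadjusted p in limma's fit was 0.112, and 94.6% of all genes had a smaller signed difference.

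Reg3d (NM_013893) read -1.61 and -2.06 in the controls and -1.27 and -1.26 with metformin. As in Reg3a, control 2 was lowest and the metformin samples were close to each other. The means were -1.84 ± 0.32 and -1.26 ± 0.01 (SD, n = 2), a log2 difference of 0.57 (SE 0.31), or 1.49-fold with a 95% interval from 0.832-fold to 2.66-fold. The unadjusted p in limma's fit was 0.135. At this brightness, a processed signal of 200 to 2000, the spots of probes printed at least 10 times on an array had a median SD of 0.05 log2 units, which covers spotting error only.

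Without metformin 1 the differences were of similar size, at 0.52 for Reg3a and 0.58 for Reg3d. Over omissions of each sample in turn they ran from 0.45 to 0.68 and from 0.35 to 0.80. With no scaling between arrays Reg3a differed by 0.30, with overlap, since its processed signal was 33526 in control 2 and 33088 in metformin 1, and Reg3d differed by 0.31. With the deposited table used unscaled the differences were 0.22 for Reg3a, with overlap, and 0.27 for Reg3d.

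Genes of the epithelium, where Reg proteins are made, also had mostly higher means with metformin: 7 of 8 markers, with a median difference of 0.20. Over all genes the mean was higher in 12532 of 21648. Only 1 of the 8 was higher without overlap, an order found in 12.5% of all genes, and Krt19 had a lower mean. That gene was Cdh17, an intestinal cadherin, which read 4.31 and 4.17 in controls and 4.78 and 4.51 with metformin. Measured from the control mean, the median of these markers was 0.16 in metformin 1 and 0.31 in metformin 2, against -0.03 and 0.03 in controls 1 and 2, and their log2 summed level ran from 9.65 to 9.66 in controls and from 9.85 to 9.98 with metformin. Scaled to these markers, an alternative chosen after seeing the data, both Reg3a and Reg3d differed by 0.36, Reg3a without overlap and Reg3d with overlap. Their part in the result beyond this rescaling was not tested.

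Of the same 14547 genes, 33 were nearer to Reg3a than Reg3d was, and 14 were nearer to Reg3d than Reg3a was. Within 0.25 of Reg3a lay 2643 genes. The nearest were Asgr2, a subunit of the asialoglycoprotein receptor and itself a C-type lectin (0.03), 4732471J01Rik (0.04) and Lmo7 (0.05). For Reg3d 1801 genes lay within 0.25. The nearest were Antxr2, an anthrax toxin receptor (0.04), Rhox1 (0.05) and Marveld3, a tight junction protein (0.05).

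Reg1, known from acinar cells and regenerating islets, was high in a single sample, the one in which markers of the upper small intestine were also high. Its probe (NM_009042) read 2.09 in metformin 1, against -0.42 in metformin 2 and -0.44 and -0.21 in controls 1 and 2. Metformin 1 stood above all the others, while metformin 2 lay between the controls. The means were -0.33 ± 0.16 and 0.84 ± 1.78 (SD, n = 2), a log2 difference of 1.16 (SE 0.89). The interval, from 0.430-fold to 11.7-fold, was the widest of the family. Without metformin 1 the difference was -0.09, and without metformin 2 it was 2.42.

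In metformin 1 the median deviation from the control mean was 2.04 over 8 markers of the upper small intestine and -1.27 over 8 markers of the ileum. In metformin 2 these medians were -0.60 and 0.29. Lct, the lactase gene, read 8.43 in metformin 1 and 4.84 in metformin 2, against 6.11 and 5.61 in controls 1 and 2. Slc10a2, the ileal bile acid transporter, read -0.89 in metformin 1 and 4.93 in metformin 2, against 4.46 and 3.28 in controls 1 and 2. Lct was chosen after its values were seen. Onecut2 was the only upper intestinal marker at least 2-fold changed without overlap. It read -3.89 and -1.69 in controls 1 and 2, and 0.75 and -0.94 in metformin 1 and 2. Cybrd1 and Slc40a1 went the other way from Lct and were lowest in metformin 1, at -3.94 and -1.68. The summed level of the upper intestinal markers ran from 6.97 to 7.67 (log2) in controls and from 6.56 to 9.75 with metformin, and that of the ileal markers from 8.94 to 9.51 and from 7.41 to 9.43. Their part in the Reg1 result was not tested.

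**Figure D3:**
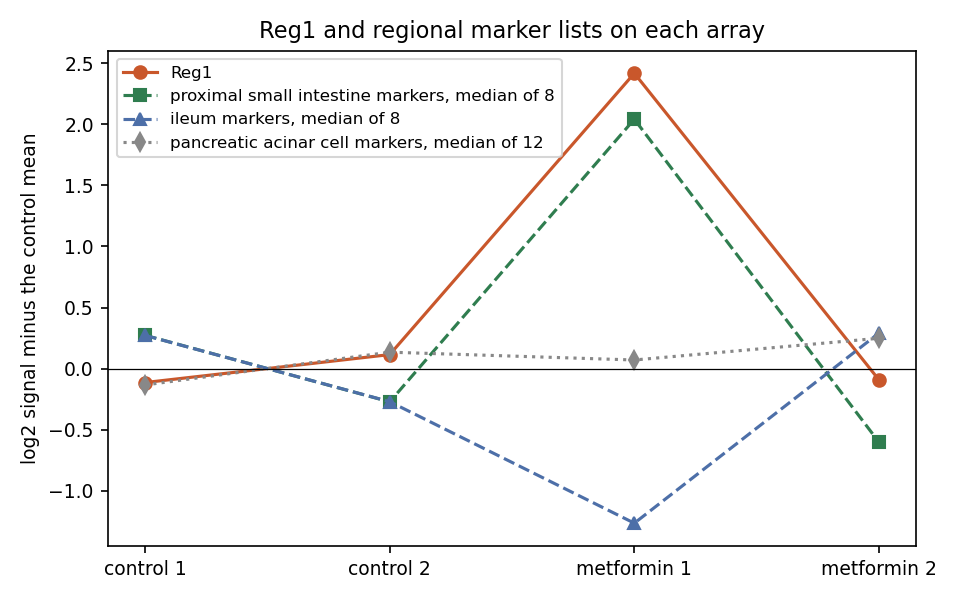
Reg1 and the medians of 8 upper small intestinal, 8 ileal and 12 pancreatic acinar markers on each array (horizontal axis), as log2 signal minus the control mean (vertical axis). The acinar median was 0.07 in metformin 1 and 0.25 in metformin 2. In metformin 1 Reg1 and the upper intestinal markers (2.04) are high and the ileal markers (-1.27) are low.

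Within 0.25 of Reg1 lay 10 of 14547 genes, but this distance is absolute, and Reg1 ranged over 2.53 log2 units, the widest range of the family. The nearest were Gm14548 (0.12), Casp6, an effector caspase (0.18), and Aadac, an arylacetamide deacetylase (0.19). Within the family Reg1 lay 0.81 to 1.55 from every other member.

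Pancreatic acinar genes are expressed with Reg1 and Reg2 in the pancreas. Of 24 listed, 21 had a probe and 12 were tested. Their means were higher with metformin in 7 and lower in 5, with 3 higher (Cel, Cela3b and Rbpjl) and 0 lower without overlap, against 12.5% and 8.46% of all genes. Cel and Rbpjl were named after their values were seen. Rbpjl was well above background on only 3 of the 4 arrays and so passed the filter through a single group. Its place among the 3 is therefore less secure. The trypsinogen probes Prss1 and Prss2, Cpa1, Pnlip, Amy2a5 and Ptf1a, which define this cell type, did not pass the filter on dim probes. The log2 summed level of the list, which rests almost wholly on the colipase gene Clps, was 3.64 in metformin 1 and 4.17 in metformin 2, against 4.03 and 4.90 in controls 1 and 2. Cela3b, a pancreatic elastase, was not well above background in either control and passed the filter through the metformin group alone. No size is therefore given for Cela3b, and it adds nothing to the 3 counted as higher. The part of acinar cells in the Reg1 and Reg2 values was not tested.

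Reg2 was close to background on every array. Its probe (NM_009043) read -7.15 and -6.34 in the controls and -5.72 and -6.07 with metformin, and in control 1 it was not well above background. The raw median signals were 39, 46, 43 and 43, over local backgrounds of 24, 26, 26 and 24. In raw signal the groups thus overlapped, and control 2 was highest. The means were -6.75 ± 0.57 and -5.89 ± 0.25 (SD, n = 2), a log2 difference of 0.85 (SE 0.40) with an unadjusted p of 0.0943 in limma's fit. Reg2 passed the filter on dim probes only through the metformin group, where it was higher. This size and p are therefore no support for a difference. Spots of this brightness, under 30, had a median SD of 0.24 log2 units within an array. The difference was 0.25 after normexp background correction and 0.02 when the deposited table was used unscaled, both with overlap. Without metformin 1 it was 0.68, without control 1, the array not well above background, it was 0.45, and without control 2 it was 1.26.

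Reg4, the member that lies on another chromosome, differed more between samples numbered 2 and samples numbered 1 than between groups. Its probe (NM_026328) read 3.29 and 4.28 in controls 1 and 2, and 2.91 and 4.26 in metformin 1 and 2. In both groups the sample numbered 2 was higher. The means were 3.79 ± 0.70 and 3.58 ± 0.96 (SD, n = 2), a log2 difference of -0.20 (SE 0.63), with a 95% interval from 0.272-fold to 2.77-fold. Without metformin 1 the difference was 0.47, and without control 1 it was -0.70.

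Samples numbered 2 exceeded those numbered 1 in Reg4 by 1.17 on average, and 11.3% of all genes had a larger absolute difference of this kind. Reg4 was the only Reg gene for which it was larger than the treatment difference. In Reg1 it was -1.14, and in the other 5 members it lay between -0.22 and 0.23. Over all genes the median absolute difference by number was 0.44, and by treatment 0.22. The nearest genes to Reg4 were Jag2, a Notch ligand (0.02), Naa50, an N-terminal acetyltransferase (0.03), and Abitram (0.03), with 875 genes within 0.25.

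**Figure D4:**
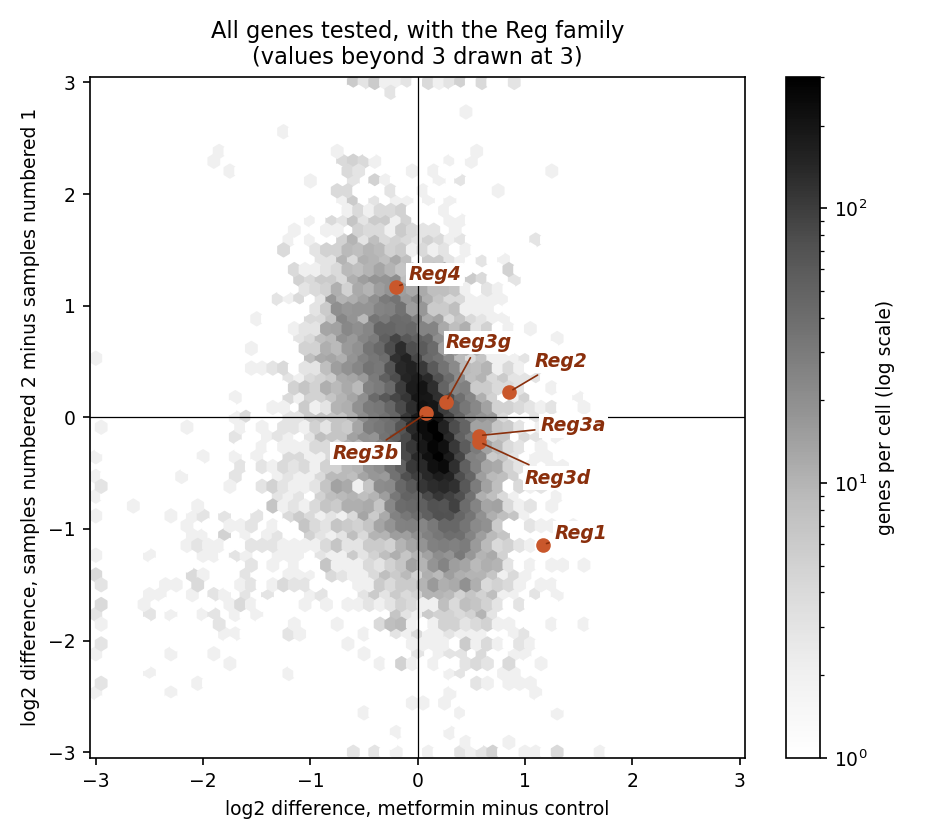
Log2 difference between treatments (horizontal axis) and between samples numbered 2 and 1 (vertical axis) for all genes tested (shading, genes per cell on a log scale) and the 7 Reg genes (points). Reg4 lies high on the vertical axis (1.17) and near 0 on the horizontal, Reg1 lies low (-1.14), and the others lie near 0 on the vertical axis.

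Cell types known to make Reg proteins were described by the same counts, to be read against the shares over all genes given above. Of 7 Paneth cell markers 6 had lower means with metformin (median -0.26), with 1 lower without overlap, Ang4, an antimicrobial ribonuclease, at 5.37 and 6.33 against 4.73 and 5.20. The median deviation of the Paneth markers from the control mean was -0.58 in metformin 1, where 5 of 7 were lowest, and 0.06 in metformin 2. Goblet cell markers were split, 4 higher and 4 lower. Enteroendocrine markers had higher means in 13 of 16 (median 0.34), and 12 of the 16 were highest in metformin 2, as were Reg3b and Reg3g. None of these genes passed limma's adjusted threshold.

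Of 18 tested genes of interleukin-22, interleukin-6 family and STAT3 signalling, 11 had higher and 7 lower means with metformin, 4 were higher and 1 lower without overlap (12.5% and 8.46% over all genes), and 0 passed limma's adjusted p of 0.05. The median difference was 0.23. The 3 with the smallest unadjusted p were Osmr, the oncostatin M receptor (-1.14, SE 0.80), Il22ra2, a decoy receptor for interleukin-22 (0.55, SE 0.44), and Socs3, a feedback inhibitor of STAT3 (0.76, SE 0.61). Socs3 read 2.47 and 3.84 in the controls and 3.46 and 4.36 with metformin, with overlap.

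Among 16 genes of microbial sensing, 11 had higher and 5 lower means with metformin (median 0.10). Il18, an epithelial cytokine, read 1.19 and 0.79 in controls and 2.11 and 2.02 with metformin, a log2 difference of 1.07 (SE 0.31, unadjusted p = 0.0212 in limma's fit). Il1r1, an interleukin-1 receptor, was lower by a log2 difference of -1.04 (SE 0.46), without overlap. Myd88, outside the naming rule and chosen after its values were seen, read 1.01, 1.05, 1.05 and 1.07 over the 4 arrays.

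Among 13 other inducible defence genes of the epithelium, 11 had higher and 2 lower means with metformin (median 0.63), with 2 higher and 2 lower without overlap. The median deviation from the control mean was 1.19 in metformin 2, where 9 of 13 were highest, and -0.43 in metformin 1, where 6 of 13 were lowest. The 2 lower without overlap were the gasdermins Gsdmc3 and Gsdmc4, and the 2 higher were Lcn2 and S100a9. Gsdmc3, Gsdmc4 and Lcn2 were named after their values were seen. Lcn2 read -3.40 and -3.06 in controls 1 and 2, and -2.15 and -2.59 in metformin 1 and 2. S100a9, a calprotectin subunit, lay higher in both metformin samples, but it was not well above background in control 1. It passed the filter through the metformin group, so no size is given and it adds nothing to the 2 counted as higher. The 11 higher means and the median include S100a9. They also include Cxcl1, well above background on only 3 of the 4 arrays. Saa1, a serum amyloid A gene chosen after its values were seen, read 4.15 in metformin 2 but -0.51 in metformin 1, against -0.63 and 0.43 in controls 1 and 2. Its high value was thus in metformin 2 alone, the sample in which Reg3b and Reg3g were also highest. Any link between Saa1 and these Reg genes was not tested. In 16 other secreted antimicrobial and lectin genes the means were higher in 10 and lower in 6 (median 0.16). Without overlap 2 were higher, Lgals4 and Pglyrp3, and 0 lower, where 12.5% of all genes were higher in this way. Pglyrp3 was well above background in neither control and passed the filter through the metformin group alone, so it adds nothing to this count.

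Extl3, an exostosin-like protein known as a receptor for Reg proteins, read 1.51 and 1.33 in controls and 1.21 and 1.30 with metformin, a log2 difference of -0.17 (SE 0.28). All 5 genes of its family had lower means with metformin, though Ext1 differed by only -0.0008 and Extl1 by -0.05. Over all genes the mean was lower in 9116 of 21648. In 2 of the 5 both metformin samples lay below both controls, an order found in 8.46% of all genes.

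Markers of other tissue layers and of immune cells also differed in their means between the groups. Fibroblast and adipocyte markers were lower by at least 2-fold without overlap in 11 of 11 (median -2.69), and smooth muscle markers in 6 of 7 (median -3.13). Of the 11, 9 were well above background on all 4 arrays. Plin1 and Dpt were not, and passed the filter through the control group alone, where they were higher. The median of -2.69 is the value of Plin1. Acta2, smooth muscle actin, read 4.93 in control 1 but 0.0010 in control 2, and -0.98 and -0.30 in metformin 1 and 2. The log2 summed level of smooth muscle markers ran from 2.93 to 7.07 in controls and from 2.41 to 2.65 with metformin, and that of fibroblast and adipocyte markers from 4.69 to 5.28 and from 2.21 to 3.25. T and innate lymphoid cell markers had higher means in 8 of 9 (median 0.57), and neutrophil and macrophage markers in 5 of 6 (median 0.48). The latter 5 include S100a9, which passed the filter through the metformin group alone. In metformin 1, where Reg1 was also highest, 6 of the 9 and 3 of the 6 were highest. The median deviation of the T and innate lymphoid cell markers was 1.08 in metformin 1 and -0.08 in metformin 2, and that of the neutrophil and macrophage markers 0.80 and 0.21. The part of these tissue differences in the Reg values was not tested.

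**Figure D5:**
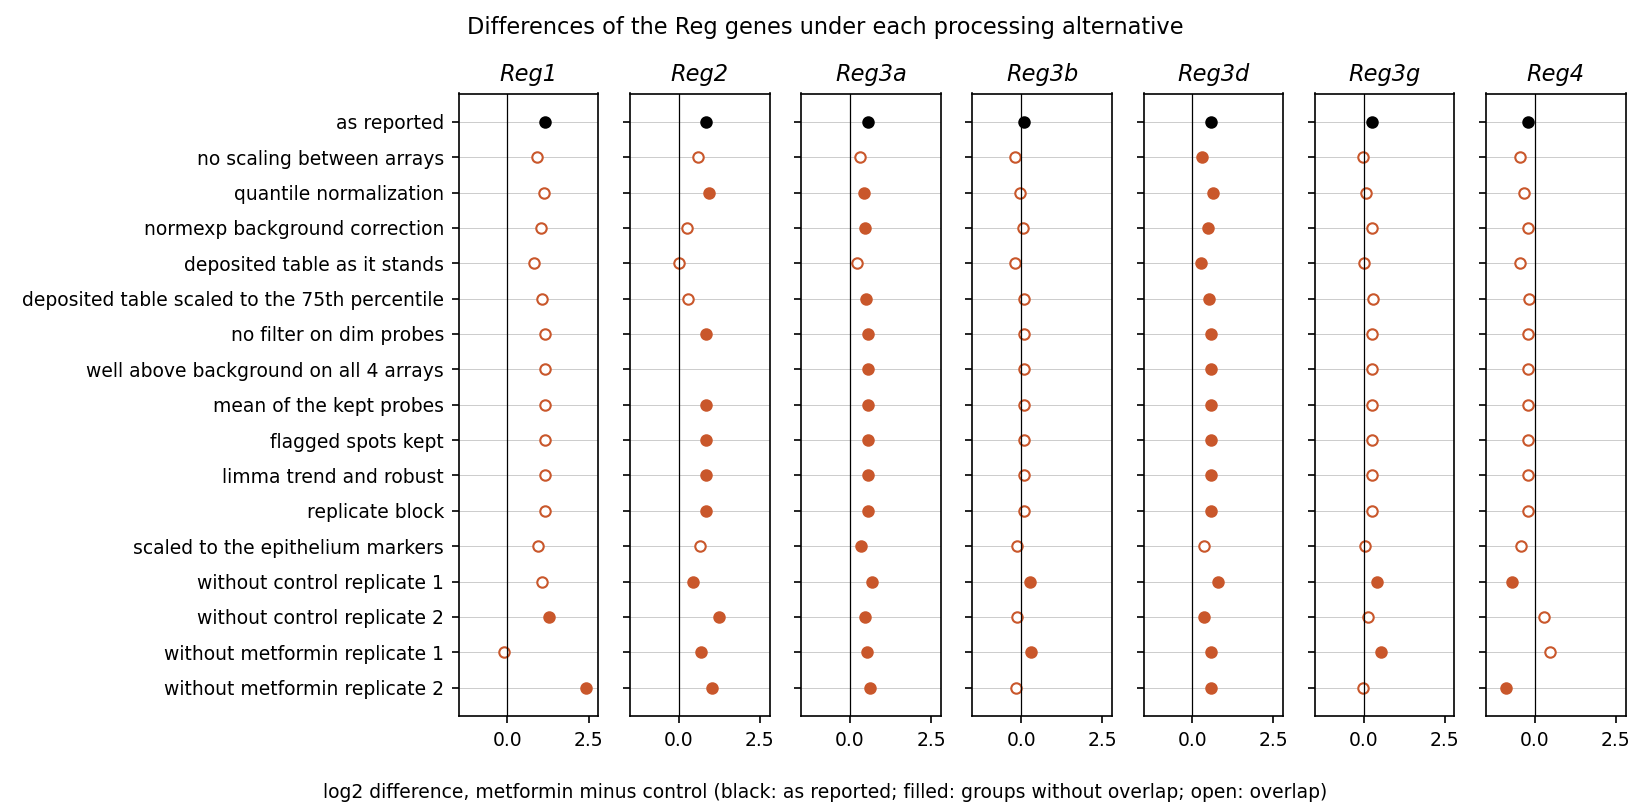
Log2 difference, metformin minus control (horizontal axis), of each Reg gene (panels) as reported and under each processing alternative (rows), filled where the groups did not overlap. Reg2, Reg3a and Reg3d are above 0 in every row they have, while Reg1 reaches from -0.09 to 2.42 and Reg3b, Reg3g and Reg4 also lie on both sides of 0.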

How the data were processed

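Ileal RNA labelled with Cy3 was measured on 4 one-colour arrays. Per the file headers, the scanner files hold spot intensity values from Agilent Feature Extraction 10.7.3.1, background-subtracted and detrended within each array. The other values used were the deposited quality flags for background, uniformity and saturation, given per the file headers. The intensity in the authors' deposited table matched the raw median signal for 39030 of 39030 single-spot probes (within 0.5) and served as an alternative.

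The log2 processed signal was set relative to each array's 75th percentile over probes outside controls. Of 39429 probes, 47 lacked an unflagged spot on at least 1 array and were left out, 26440 that were well above background on both arrays of a group were kept, and the brightest probe of a gene was tested, which gave 21648 genes and unnamed transcripts (15358 with a symbol). RefSeq accessions gave 27508 probes 1 symbol, and 11921 were not named. Groups were compared with limma 3.58.1 in R 4.3.3, two-sided, with Benjamini-Hochberg adjustment over all genes. The script was tested on simulated data. Between 65.2% and 69.1% of probes were well above background and no spot was saturated. The number of arrays limits the precision.

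The Reg genes and all gene lists were chosen with earlier results of these data known. The rule for naming genes from a list took those at least 2-fold changed without overlap (at most 4 by smallest p). Where there were none it took up to 3 of smallest p. Not every gene it picked is named. Besides exceptions stated above, Cybrd1, Slc40a1, Clps, Lgals4, Dpt, Krt19, Cxcl1, Ext1 and Extl1 lay outside it. So did the acinar genes that failed the filter. For each Reg gene well above background on all 4 arrays the 3 genes nearest in pattern were named. Alternatives changed the background correction, scaling, filter, probe summary, fit, deposited table and samples left out. Normexp used the median signal.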

Additional observations from a re-analysis of the deposited data

How the results depend on the processing

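No gene passed limma's adjusted threshold under any of the 16 settings. The Reg3b difference reversed to -0.19 with no scaling, -0.048 with quantile normalization, -0.18 in the deposited table as it stands and -0.13 when scaled to epithelium markers (chosen after seeing the data). Reg3g reversed to -0.0022 with no scaling. These scalings, except quantile, moved the median of all genes to -0.20, -0.17 and -0.15. Leaving out each sample in turn gave ranges of -0.092 to 2.42 for Reg1, 0.45 to 1.26 for Reg2, -0.15 to 0.31 for Reg3b, -0.013 to 0.54 for Reg3g and -0.88 to 0.47 for Reg4, and 0 to 2 Reg genes at least 2-fold higher without overlap (Reg1 and Reg2, without control 2 or without metformin 2). Reg2 had no value when all 4 arrays had to be well above background.

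Genes at least 2-fold higher without overlap, 137 as reported, numbered 59 with no scaling, 13 after normexp, 10 in the deposited table, 22 in that table after scaling, 318 with no filter, 42 with the filter on all 4 arrays, 60 when scaled to epithelium markers and 510 to 1932 with a sample left out. Those lower, 499 as reported, numbered 937 with no scaling, 118 after normexp, 198 in the scaled deposited table, 811 with no filter, 859 when scaled to epithelium markers and 850 to 1776 with a sample left out. The cause was not tested, except that the filters change which genes are tested.

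With the replicate block the differences were the same and 0 genes were called; adjusted p of the Reg genes in limma's fit ran from 0.63 to 0.91. Same-numbered samples deviated together over genes (correlation 0.56), but with 2 pairs the samples share only a number.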
